A study of Homo sapiens with 9 samples.

Results

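Messenger RNA levels of 10 clock output genes were followed across the 9 libraries: NR1D1 and NR1D2 (the REV-ERB receptors), RORA, the PAR-bZIP factors DBP, TEF and HLF, their antagonist NFIL3, the repressor CIART, and the DEC factors BHLHE40 and BHLHE41. They were chosen by name, as the transcription factors that link the core circadian loop to its outputs, and all 10 were found among the 38021 genes of the table. Earlier results of these data were known when the choice was made. The libraries came from 786-O cells, an established line from a human clear cell renal cell carcinoma (ccRCC) that lacks functional VHL and therefore keeps HIF2α at normal oxygen. Every group carried a lentiviral short hairpin RNA in the pLKO.1 vector and was selected and kept in puromycin. The groups were shControl, with a control hairpin, shARNT, with a hairpin against ARNT, and shBMAL1, with a hairpin against BMAL1, and each had 3 libraries. ARNT and BMAL1 are related bHLH-PAS partners, and the comparisons ask what the clock outputs do when either is lowered. The methods list 1 hairpin against ARNT and a pair against BMAL1, and the labels do not say which of the latter was used. They name neither a clock synchronisation nor a collection time, so a lower level over the whole cycle and a shift of phase cannot be told apart. In bulk RNA, fewer cells expressing a gene and less RNA per cell cannot be told apart either.

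In the circadian clock, BMAL1 pairs with CLOCK or NPAS2 and activates genes through E-boxes, among them the PER and CRY repressors and several of the genes described here. REV-ERBs repress, and RORs activate, BMAL1 and other genes through a shared response element. DBP, TEF and HLF activate D-box genes that NFIL3 represses, and CIART, BHLHE40 and BHLHE41 repress CLOCK with BMAL1, the DEC factors by competing for E-boxes.

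Library totals ran from 33793043 to 35444731 reads, and between 20068 and 20778 genes had at least 1 read. Mitochondrial genes took 5.46 to 7.14% of the reads in shControl, 7.59 to 8.74% in shARNT and 8.71 to 9.66% in shBMAL1, and the part of this difference in the results was not tested. The targeted genes followed the labels. ARNT had normalised read counts (reads divided by each library's size factor) of 2187, 2551 and 2318 in shControl and 1239, 1238 and 1199 in shARNT. BMAL1, listed as ARNTL, had 752, 797 and 735 in shControl and 346, 292 and 340 in shBMAL1. The partner of each target was also called lower, with a log2 fold change of -0.26 for ARNTL in shARNT and -0.23 for ARNT in shBMAL1 (DESeq2 adjusted p = 0.0294 and 0.0187). All 12 renal and ccRCC markers were detected, and PAX8, a renal lineage factor, had 6831 to 10412 reads in every library. Of 10 markers of other cell types, CD3E, CDH5, NPHS1 and UMOD were at 0 in all 9 libraries, and EPCAM, an epithelial gene, was the one with more than 9 reads (270 to 384). Markers moved with the groups too: 9 of the 12 renal and ccRCC markers were called changed in each comparison, with CDH16 at 2.30 on the log2 scale in shBMAL1 and CA9 at -2.85 in shARNT. Their part in the results below was not tested.

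The promoter windows of the members show what the clock's own elements look like at these genes. Windows of 250 bases before to 50 after each annotated start were taken from RefSeq (GRCh38.p14), where all 10 genes were matched. They were searched on both strands for the E-box CACGTG, the E-box variant CACGTT, the REV-ERB and ROR element TAGGTCA or TGGGTCA, and the D-box TTATGTAA or TTACGTAA. Over all 35116 windows, 7.26% held the E-box, 5.34% the variant, 5.69% the REV-ERB and ROR element and 1.01% the D-box. CIART held 3 E-boxes, and 33 of all windows (0.094%) held 3 or more. NR1D2 held 2 at one of its 2 annotated starts, together with a REV-ERB and ROR element and a D-box. The stretches are printed 5′ to 3′ on the strand of the gene, end before the start site, and match a single place in GRCh37. Capitals mark the motif, read on either strand.
CIART, chr1:150254824-150254925, + strand: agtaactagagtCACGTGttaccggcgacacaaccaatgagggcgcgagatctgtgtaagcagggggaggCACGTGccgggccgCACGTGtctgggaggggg
NR1D2, chr3:23987406-23987524, + strand: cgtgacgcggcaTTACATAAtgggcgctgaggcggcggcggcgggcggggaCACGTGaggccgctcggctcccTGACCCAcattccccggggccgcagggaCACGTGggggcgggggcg
BHLHE40, chr3:5020872-5020894, + strand: tccaaCACGTGagactcatgtga
BHLHE41, chr12:26278001-26278030, - strand: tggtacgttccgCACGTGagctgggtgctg
TEF, first start, chr22:41763252-41763281, + strand: gcgcgacagctcCACGTGctgcagctggcg
TEF, second start, chr22:41777741-41777770, + strand: cacctggccccgCACGTGtctatcttatcc
NR1D1, chr17:38256993-38257022, - strand: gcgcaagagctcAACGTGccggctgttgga
NFIL3, chr9:94186115-94186135, - strand: ggcgctcggaacTGACCTAct
In the NR1D2 stretch the capitals are, in order, the D-box, an E-box, the REV-ERB and ROR element and the other E-box. NR1D1 held the variant alone, and NFIL3 a REV-ERB and ROR element whose first base lay 9 bases before the start. DBP, HLF and RORA had none of these letters in their windows. A match describes the sequence and is not a measured binding site.

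**Figure D1:**
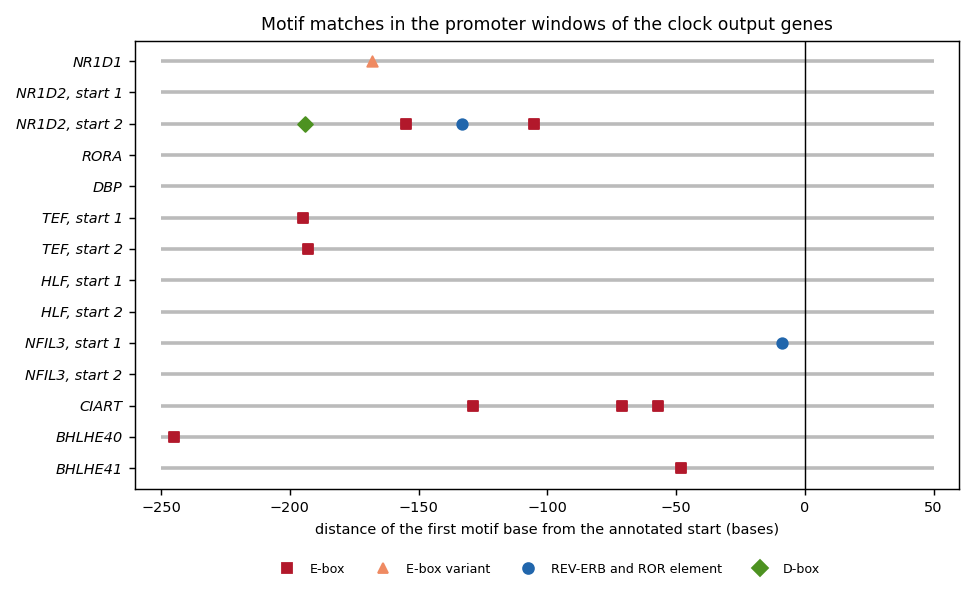
Motif matches in the promoter windows, with the distance of the first motif base from the annotated start in bases on the horizontal axis and 1 line for each start. CIART holds 3 E-boxes between -129 and -57, and 1 start of NR1D2 holds 4 motifs.

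Of the 10 genes, 9 entered the tests and RORA did not. Against shControl, shARNT raised 6 members and lowered 2, with 1 not called. Across all 15164 genes tested in that comparison, 35.4% were called (16.5% higher and 19% lower at a DESeq2 adjusted p under 0.1). shBMAL1 lowered 5 members and raised 1, with 3 not called, where 36.8% of 19036 genes were called (17.4% higher and 19.4% lower). Both comparisons use the same control libraries. The comparison of shBMAL1 with shARNT uses no control library but reuses the knockdown libraries of both, so it is not independent of them. There, 6 members were lower, 2 higher and 1 not called, where 35.3% of 18181 genes were called (17.3% higher and 18% lower). The median log2 fold change of the 9 members was 0.42 in shARNT, -0.30 in shBMAL1 and -0.78 in shBMAL1 against shARNT, where the median of all genes tested was 0.0028, 0.015 and 0.0094.

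**Figure D2:**
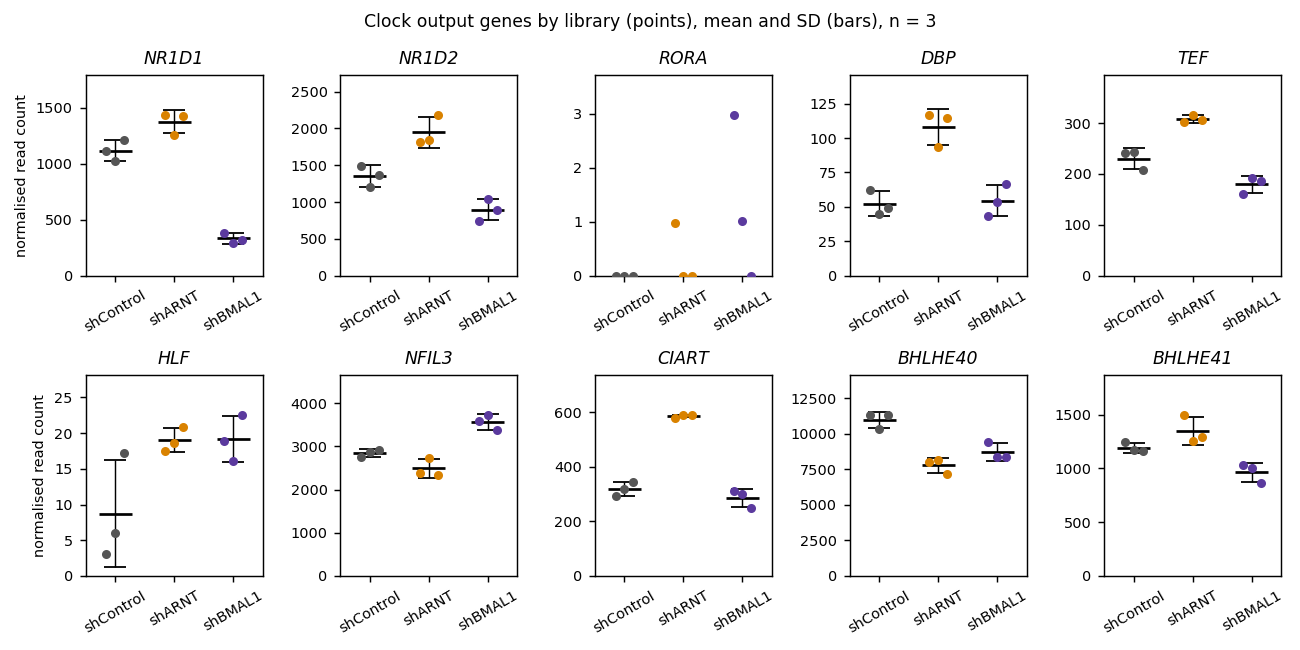
Normalised read counts (vertical axes, linear from 0) of the 10 genes in each library, with points for the 3 libraries of a group and black bars for mean and SD, except for RORA, where only the points are drawn. NR1D1 in shBMAL1 lies between 293 and 384, below every other library, and CIART in shARNT lies between 581 and 590, above every other library.

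NR1D1 (chr17:38249046-38256842, - strand, GRCh37) encodes REV-ERBα, a heme-binding nuclear receptor that represses transcription. Its normalised read counts were 1116, 1019 and 1207 in shControl, 1435, 1256 and 1427 in shARNT, and 384, 293 and 317 in shBMAL1. The 3 groups did not overlap, and the shBMAL1 libraries stood far below the rest. The level in shBMAL1 was 0.297 times that in shControl (log2 fold change -1.75, SE 0.118, DESeq2 adjusted p = 9.97e-48). In shARNT it was 1.24-fold higher (0.30, SE 0.0864, adjusted p = 0.0025). The difference of shBMAL1 from shARNT was -2.05 on the log2 scale (SE 0.112, adjusted p = 3.46e-72), the largest among the members and larger in size than 97.7% of the genes tested. NR1D1 shares 473 exonic bases with THRA, a thyroid hormone receptor gene on the opposite strand, and whether counting used the strand is not given in the sources used here. THRA itself had log2 fold changes of 0.18, 0.04 and -0.14 in the 3 comparisons and was not called in any.

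NR1D2 (chr3:23986777-24022108, + strand) encodes the related receptor REV-ERBβ. Normalised read counts of NR1D2 were 1493, 1204 and 1369 in shControl, 1808, 1840 and 2185 in shARNT, and 748, 1037 and 898 in shBMAL1. It had the order of NR1D1, with every shARNT library above and every shBMAL1 library below the controls. The level was 1.44-fold higher in shARNT (log2 fold change 0.52, SE 0.0917, DESeq2 adjusted p = 1.7e-07) and 0.659 times the control level in shBMAL1 (-0.60, SE 0.116, adjusted p = 2.36e-06). Per kilobase of canonical transcript (2630 and 5231 bases), NR1D1 had a mean ± SD over 3 libraries of 1.64 ± 0.14 times NR1D2 in shControl, 1.41 ± 0.15 in shARNT and 0.762 ± 0.24 in shBMAL1. The NR1D1 ratio was thus below that of every other library in all 3 shBMAL1 libraries (1.02, 0.562 and 0.703). With 3 libraries against 3, an exact permutation test of such a ratio cannot go below p = 0.1, so the ratios were not tested. The summed level per kilobase of both receptors was 683 ± 56.7 in shControl, 894 ± 65.5 in shARNT and 297 ± 11.1 in shBMAL1.

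RORA (chr15:60780483-61521501, - strand) encodes RORα, the activator that competes with REV-ERBs for their element. It had 0, 0 and 0 reads in shControl, 1, 0 and 0 in shARNT, and 3, 1 and 0 in shBMAL1. All libraries were at or under the floor of 3 reads, so no fold is given and expression was not detectable at this depth. RORB, a related receptor gene, had 0 reads in all 9 libraries.

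DBP (chr19:49133287-49140636, - strand) is an activator of D-box genes. Normalised read counts of DBP were 62.4, 45.0 and 49.5 in shControl, 117, 93.3 and 114 in shARNT, and 43.7, 53.4 and 66.6 in shBMAL1. The shARNT libraries stood above all others, and those of shBMAL1 and shControl overlapped. The level was 2.07-fold higher in shARNT (log2 fold change 1.05, SE 0.255, DESeq2 adjusted p = 0.000292). In shBMAL1 no change was called, at 0.06 (95% interval -0.55 to 0.67, adjusted p = 0.921), and the difference of shBMAL1 from shARNT was -0.99 (SE 0.257, adjusted p = 0.000792). DBP shares 661 exonic bases with SPHK2, a sphingosine kinase gene on the opposite strand with a mean of 541 normalised reads in shControl, about 10 times the DBP count. SPHK2 was also called, at 0.48, 0.25 and -0.23 in the same 3 comparisons (adjusted p = 3.05e-06, 0.0757 and 0.0785). How many reads in the shared stretch belong to either gene was not tested.

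TEF (chr22:41763337-41795330, + strand) is the most abundant of the 3 PAR-bZIP activators per kilobase. TEF had normalised read counts of 240, 243 and 207 in shControl, 301, 316 and 305 in shARNT, and 160, 192 and 186 in shBMAL1. Every shARNT library lay above and every shBMAL1 library below the controls. It was 1.34-fold higher in shARNT (log2 fold change 0.42, SE 0.139, DESeq2 adjusted p = 0.0113). In shBMAL1 it was called lower at -0.36 (SE 0.164, adjusted p = 0.0797), a call that was lost without shControl library 1 or 2 and without any one of the shBMAL1 libraries (adjusted p = 0.109 to 0.267). Between shBMAL1 and shARNT the difference was -0.78 (SE 0.150, adjusted p = 2.43e-06) and was called under every alternative.

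HLF (chr17:53342321-53402548, + strand), the third activator, was near the limit of detection. It had 3, 6 and 17 reads in shControl, 18, 19 and 21 in shARNT, and 19, 16 and 23 in shBMAL1. Control library 3 lay with the knockdowns and the other two controls below them. The log2 fold change was 1.13 in each knockdown (SE 0.646 and 0.649, DESeq2 adjusted p = 0.189 and 0.187), and neither was called. Without control library 3 both were called, at 2.08 (adjusted p = 0.0364 and 0.0383).

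NFIL3 (chr9:94171327-94186114, - strand) encodes E4BP4, the repressor of D-box genes. The normalised read counts of NFIL3 were 2750, 2874 and 2916 in shControl, 2395, 2739 and 2332 in shARNT, and 3596, 3726 and 3371 in shBMAL1. The order of the groups was the reverse of that of TEF and the REV-ERB genes, again without overlap. NFIL3 was 1.25-fold higher in shBMAL1 (log2 fold change 0.32, SE 0.0700, DESeq2 adjusted p = 3.42e-05), and 1.43-fold higher there than in shARNT (0.52, SE 0.0797, adjusted p = 1.76e-09). In shARNT it was lower, at -0.19 (SE 0.0702, adjusted p = 0.026), and that call was lost without control library 3, shARNT library 1 or shARNT library 3 (adjusted p = 0.108, 0.128 and 0.183).

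Set against each other per kilobase, the summed level of DBP, TEF and HLF was 6.29, 5.52 and 5.15% of that of NFIL3 in the shControl libraries. It was 10.8, 8.89 and 11.1% in shARNT and 3.42, 3.94 and 4.70% in shBMAL1. The 3 groups did not overlap, so the activators were scarcer relative to the repressor in shBMAL1 and more abundant in shARNT. The sum includes DBP, which shares exonic bases with SPHK2. Mean DBP levels per kilobase were 24.1 in shControl, 49.8 in shARNT and 25.1 in shBMAL1. The part of shared reads in these ratios was not tested. The group means were 5.65 ± 0.58%, 10.3 ± 1.20% and 4.02 ± 0.64% (SD, n = 3).

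**Figure D3:**
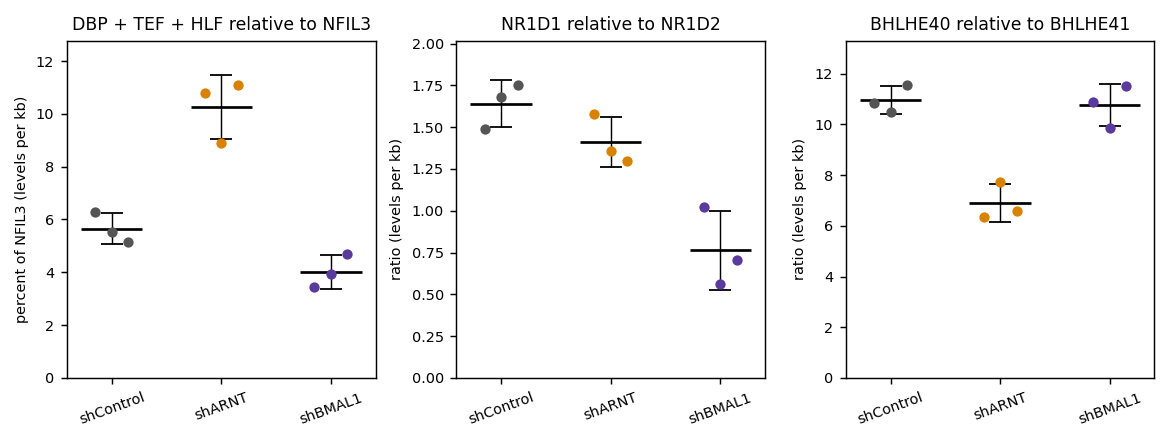
Ratios of levels per kilobase in each library (points) with mean and SD (black bars), on linear axes from 0. The activators DBP, TEF and HLF reach 10.3% of NFIL3 on average in shARNT and 4.02% in shBMAL1, NR1D1 falls to 0.762 times NR1D2 in shBMAL1, and BHLHE40 falls to 6.90 times BHLHE41 in shARNT.

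CIART (chr1:150254953-150259505, + strand) encodes CHRONO, a repressor of CLOCK with BMAL1, and no other gene overlapped it. CIART had normalised read counts of 294, 320 and 344 in shControl, 581, 590 and 589 in shARNT, and 311, 301 and 249 in shBMAL1. The shARNT libraries were nearly equal and stood far above the rest, while shBMAL1 and shControl overlapped. CIART was 1.84-fold higher in shARNT (log2 fold change 0.88, SE 0.112, DESeq2 adjusted p = 8.89e-14). No change was called in shBMAL1 (-0.16, 95% interval -0.44 to 0.13, adjusted p = 0.465), while its window held more E-boxes than that of any other member. From shARNT to shBMAL1 the difference was -1.03 (SE 0.123, adjusted p = 1.4e-15).

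BHLHE40 (chr3:5021122-5027008, + strand) encodes DEC1, a repressor known to respond to hypoxia as well as to the clock, and was the most abundant member. BHLHE40 had normalised read counts of 11333, 10321 and 11315 in shControl, 8020, 8178 and 7189 in shARNT, and 9429, 8354 and 8383 in shBMAL1. Every library of either knockdown lay below every control. The level was 0.711 times the control in shARNT (log2 fold change -0.49, SE 0.0611, DESeq2 adjusted p = 2.57e-14) and 0.793 times in shBMAL1 (-0.34, SE 0.0707, adjusted p = 1.83e-05). The difference of shBMAL1 from shARNT was 0.16 (SE 0.0736, adjusted p = 0.0861). That small difference was lost at an adjusted p under 0.05 and without shARNT library 1, shARNT library 3 or shBMAL1 library 1 (adjusted p = 0.122, 0.392 and 0.286). The antisense gene BHLHE40-AS1, which shares 451 exonic bases with it, had a mean of 33.2 normalised reads in shControl and was not called in any comparison.

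BHLHE41 (chr12:26272963-26277970, - strand) encodes DEC2, the closest relative of DEC1. BHLHE41 had normalised read counts of 1243, 1168 and 1162 in shControl, 1497, 1255 and 1295 in shARNT, and 1030, 1005 and 865 in shBMAL1. Unlike BHLHE40, it was lowest in shBMAL1 and highest in shARNT, with narrow gaps between groups. In shBMAL1 it was lower at -0.30 on the log2 scale (SE 0.0937, DESeq2 adjusted p = 0.00564), and lower than in shARNT by a difference of -0.48 (SE 0.0993, adjusted p = 1.21e-05). The rise in shARNT (0.18, SE 0.0837, adjusted p = 0.0847) was lost under 9 of 12 alternatives, among them each single omission of a library except that of shARNT library 2. Per kilobase, BHLHE40 stood at 11.0 ± 0.55 times BHLHE41 over the 3 control libraries (mean ± SD). The corresponding ratio was 6.90 ± 0.74 in shARNT and 10.8 ± 0.83 in shBMAL1. The shARNT ratios (6.36, 7.74 and 6.59) lay below those of all other libraries, and those of shBMAL1 and shControl overlapped. BHLHE41 shares 162 exonic bases with SSPN, which was not called in any comparison.

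**Figure D4:**
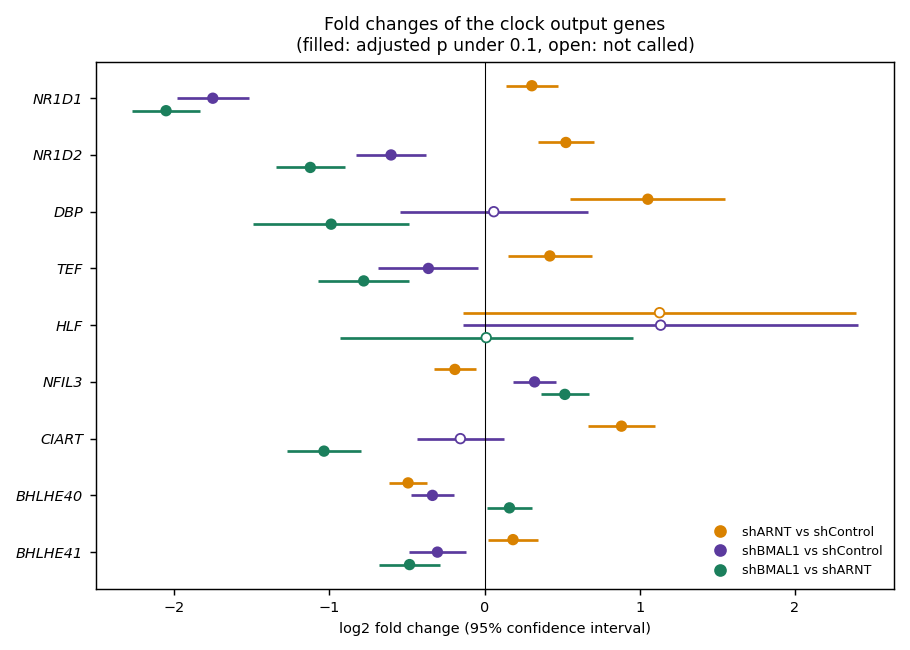
Log2 fold changes (horizontal axis) of the 9 genes tested, with 95% confidence intervals, in shARNT and shBMAL1 against shControl and in shBMAL1 against shARNT, filled where the DESeq2 adjusted p was under 0.1. NR1D1 is farthest to the left, at -1.75 and -2.05, and NFIL3 and BHLHE40 are the genes called lower in shARNT.

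Levels per kilobase of the canonical transcript put the members in order. In shControl BHLHE40 led with 3487 ± 184 normalised reads per kilobase, followed by NFIL3 (1385 ± 42.1), NR1D1 (424 ± 35.8), BHLHE41 (318 ± 12.1), NR1D2 (259 ± 27.8), CIART (159 ± 12.4), TEF (52.5 ± 4.55), DBP (24.1 ± 4.16) and HLF (1.53 ± 1.31). Neighbours in that order did not overlap between libraries. In shARNT NR1D2 (372 ± 39.9) passed BHLHE41 (360 ± 34.6), and the libraries of the pair overlapped. In shBMAL1 NR1D1 dropped from rank 3 to rank 6, at 126 ± 17.9, next to CIART (143 ± 16.6) and NR1D2 (171 ± 27.7), and neighbours among these 3 overlapped. The transcript that the counting used is not given in the sources used here, so these levels depend on the chosen length.

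**Figure D5:**
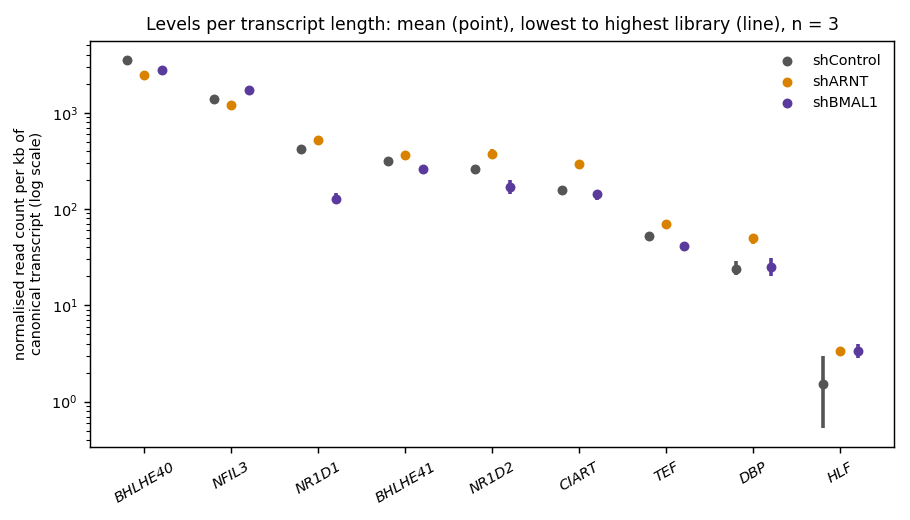
Normalised read counts per kilobase of canonical transcript (vertical axis, log scale) for the 9 genes with reads in every library, with points for group means and lines from the lowest to the highest of 3 libraries. BHLHE40 leads in every group and NR1D1 drops from 424 in shControl to 126 in shBMAL1.

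The core loop, which acts on these outputs in the clock described above, was set beside them, and its action on them was not tested. Of its 9 genes, 2 were higher and 2 lower in shARNT, and 2 were higher and 6 lower in shBMAL1, with medians of 0.0015 and -0.43 on the log2 scale. ARNTL, the gene that the shBMAL1 hairpin targets, is among the 6 lower in shBMAL1 and among the 2 lower in shARNT. PER3, a period gene, had normalised read counts of 1168, 1140 and 1066 in shControl, 1524, 1525 and 1477 in shARNT, and 523, 540 and 416 in shBMAL1. Like NR1D1 it was highest in shARNT and lowest in shBMAL1 without overlap, with log2 fold changes of 0.43 and -1.19 (DESeq2 adjusted p = 9.85e-08 and 1.25e-25) and a difference of -1.61 between the knockdowns (adjusted p = 3.02e-53). CRY2, a cryptochrome, went the other way in shBMAL1, at 0.51 (adjusted p = 0.00053). In shBMAL1 against shARNT 6 of the 9 were lower and 1 higher, with a median of -0.31.

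Of 12 known E-box genes outside the members, 5 belong to the core loop counted above (PER1, PER2, PER3, CRY1 and CRY2). Of the 12, 5 were higher and 2 lower in shARNT (median 0.14), 2 higher and 6 lower in shBMAL1 (median -0.27), and 1 higher and 7 lower in shBMAL1 against shARNT (median -0.25). USP2, a deubiquitinase, had the largest rise in shARNT, at 0.91 (DESeq2 adjusted p = 0.0586), and TSPAN4, a tetraspanin, the largest fall, at -0.30 (adjusted p = 9.41e-07). The USP2 groups overlapped, with normalised read counts of 33.2, 18.0 and 47.5 in shControl and 87.7, 55.0 and 42.7 in shARNT. Calls were also counted by E-boxes in the window, across all genes matched to one. In shARNT, genes with none were called higher in 16.8% and lower in 19.7% of 9492 cases, genes with 1 in 20.9% and 18.7% of 1194, and genes with 2 or more in 32.9% and 12.3% of 146. In shBMAL1, the shares called higher and lower were 17.9% and 21.9% of 11183 genes with none, 20.4% and 24.6% of 1320 with 1, and 24.2% and 15.3% of 157 with 2 or more. The share called lower was thus above that of genes without an E-box for 1 match and below it for 2 or more. In shBMAL1 against shARNT, genes with none were higher in 17.6% and lower in 20.2% of 10822 cases, genes with 1 in 17.7% and 24.6% of 1299, and genes with 2 or more in 18.7% and 23.9% of 155. These shares describe the genes tested, and no test was made of them.

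Of 10 D-box genes, 8 were tested, 1 of them NR1D1 itself. In shARNT 6 were higher and none lower (median 0.22), in shBMAL1 3 were higher and 5 lower (median -0.29), and in shBMAL1 against shARNT 1 was higher and 5 lower (median -0.44). The list shares PER1, PER2 and PER3 with the core loop and the E-box genes. NR1D1 was the most lowered in shBMAL1 (-1.75), followed by PER3 (-1.19). DIO1, a deiodinase, was the most raised there, at 1.25 (SE 0.438, DESeq2 adjusted p = 0.0166), and had -0.49 (adjusted p = 0.566) in shARNT.

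Known targets of the REV-ERB and ROR element did not move in 1 direction. Of 10 genes, which include NFIL3, the targeted ARNTL and CLOCK, NPAS2 and CRY1 of the core loop, 2 were higher and 4 lower in shARNT (median -0.06), 3 higher and 6 lower in shBMAL1 (median -0.26), and 2 higher and 4 lower in shBMAL1 against shARNT (median -0.04). PPARGC1A, a coactivator of mitochondrial biogenesis, had normalised read counts of 50.3, 61.0 and 36.4 in shControl, 156, 180 and 93.4 in shARNT, and 384, 432 and 428 in shBMAL1. It rose in both knockdowns without overlap, by 1.54 and 3.07 on the log2 scale (DESeq2 adjusted p = 5.5e-07 and 1.17e-55).

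Hypoxia genes were set beside the DEC genes, which share that input. In shARNT 9 of 11 tested were lower and 1 higher (median -0.91), the direction of BHLHE40 (-0.49) and not of BHLHE41 (0.18). CA9, a carbonic anhydrase, fell most, at -2.85 (DESeq2 adjusted p = 6.93e-19), and KDM3A, a histone demethylase, rose, at 0.53 (adjusted p = 1.32e-12). In shBMAL1 5 of 12 were lower and 4 higher (median -0.11), with PFKFB4, a glycolytic regulator, at -0.73 (adjusted p = 2.15e-09) and CA9 at 1.05 (adjusted p = 2.15e-08). In shBMAL1 against shARNT 8 of 12 were higher and 1 lower (median 0.45).

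The genes most like each member were sought by Pearson's r of log2(normalised read count + 1) over the 9 libraries, among 11822 genes. These libraries form 3 groups, so r mostly reflects the 3 group levels, and it is given as a description. The nearest genes to NR1D1 were TMEM184B, SLC27A4 and DAXX (r = 0.995, 0.995 and 0.993), and those to NR1D2 were AP4E1, STAM and EFNB2 (0.981, 0.975 and 0.974). CIART was nearest to DPH2, ANAPC7 and FLAD1 (0.992, 0.983 and 0.980). NFIL3 was nearest to LOC105371809, SYT12 and TKFC (0.988, 0.976 and 0.976). BHLHE40 was nearest to MFNG, RASSF4 and ITGA5 (0.975, 0.973 and 0.973), and BHLHE41 to PRAME, C20orf194 and CADPS2 (0.978 each). No member was among the 3 nearest genes of another. SLC27A4, a fatty acid transporter, shows how a likeness in pattern can come with a smaller change: its mean of 1634 ± 38.4 in shControl became 1934 ± 42.4 in shARNT and 850 ± 30.6 in shBMAL1, where NR1D1 went from 1114 ± 94.2 to 1373 ± 101 and 332 ± 47.1.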

How the data were processed

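RNA from 9 libraries of 786-O cells was measured as stranded mRNA, sequenced by BGI. The authors deposited 1 table of estimated counts, given as linear total reads per gene. Per the methods of the study, SeqMan NGen placed the reads on GRCh37 and ArrayStar counted them per gene, while the submitters' processing notes list STAR, DESeq2 and hg38. Annotation and strand setting of the counting are not given in the sources used here. Of 38074 rows, 53 shared a name and were added together, which left 38021 genes, and 28 rows with symbols turned into dates stayed unnamed in the fits. The value 0.009, which stood for 0, filled 46.3% of cells. Of the other values, 6.14% were fractional, and they were rounded.

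Each comparison was fitted in DESeq2 1.42.0 (R 4.3.3) on the 6 libraries of its groups over the whole table, with the Wald test, median-of-ratios size factors, independent filtering and Benjamini-Hochberg adjustment, two-sided, and called at an adjusted p under 0.1, as in the study. Alternatives used edgeR 4.0.16 (quasi-likelihood, TMM), TMM size factors, at least 10 counts in at least 3 libraries, a threshold of 0.05, all 9 libraries, the replicate number as a block, and each library left out in turn. The fits were tested on simulated data. Normalised read counts use size factors over all 9 libraries. Groups and replicate numbers came from the labels, which call the libraries biological replicates. No source says they were separate cultures, so p values measure the spread between these libraries. Pairs within a group differed by more than sampling noise (chi-square per degree of freedom 7.60 to 17.6). Locations, overlaps and lengths are from GENCODE on GRCh37, 1-based. The members and lists were chosen with earlier results of these data known. Named genes were the members, their families and overlapping genes, for each list the largest rise and fall or genes already named, and the 3 genes most like 6 of the members by Pearson's r. A few genes of these lists are not reported here.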

Additional observations from a re-analysis of the deposited data

How the results depend on the processing

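The counts of clock output genes called stayed within 1.5 times the reported ones under all 12 alternatives (6 to 9 in shARNT against shControl, 5 to 7 in shBMAL1 against shControl, 7 to 8 in shBMAL1 against shARNT), and so did those over all genes. Of 27 single fold changes, 19 kept direction and call throughout. DBP in shBMAL1 against shControl, not called, ranged from -0.11 to 0.20 when 1 library was left out, and was negative without shControl replicate 2 (-0.04) and without shBMAL1 replicate 3 (-0.11). HLF in shBMAL1 against shARNT, not called, ranged from -0.12 to 0.12, and was negative without shARNT replicate 1 (-0.05), shARNT replicate 2 (-0.0054) and shBMAL1 replicate 3 (-0.12). HLF was called against shControl by edgeR in shARNT and in shBMAL1 (1.11 and 1.13, adjusted p = 0.0835 and 0.0689). The cause of these changes was not tested. Same-numbered libraries of different groups did not deviate together (r = -0.15 to 0.11 over 9 pairs), so the numbers were not taken as pairs. With the replicate block, 7, 5 and 8 clock output genes were called in shARNT, shBMAL1 and shBMAL1 against shARNT, and 4150, 5742 and 5388 genes in all. The block ended the calls of BHLHE41 in shARNT (adjusted p = 0.151) and TEF in shBMAL1 (adjusted p = 0.199). TMM size factors moved the median of all genes by at most -0.011 on the log2 scale. HLF had 3 to 23 reads in a library, and RORA was not detectable at this depth.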
